A study of Homo sapiens with 6 samples.

Results

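The proteasome subunit genes were followed in total RNA of MIA PaCa-2 cells, an established line from a human pancreatic cancer that the labels call epithelial. Members were the rows of the deposited expression table whose symbol begins with PSM, a letter from A to G and a digit, without PSMB8 and PSMB9, and that reached 1 FPKM in at least 3 of the 6 libraries. FPKM is the number of fragments per length of the gene and per size of the library, as computed by the authors. Of the 18268 rows, 47 matched the pattern and 45 also passed the filter. Both rows that did not pass, PSMA8 and PSMB11, which encode testis and thymus forms of core subunits, were listed at 0 in every library. The 45 members held 15 rows of the core particle, 20 of the regulatory particle, 9 of activators, an inhibitor and assembly chaperones, and PSMC3IP. PSMC3IP matches the pattern by its letters, encodes a protein of meiotic recombination and no subunit, and was kept out of all group values (0.74, 1.49 and 1.81 FPKM in KO 1 to 3, against 1.68, 1.61 and 1.44 FPKM in vector control 1 to 3).

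One set of cells was a LINC00901 knockout (KO 1 to 3), LINC00901 being a gene for a long non-coding RNA. They were set against cells that carry the vector, titled LCV2 (vector control 1 to 3). Both were grown in DMEM to which FBS (10%) and serum of horse (2.5%) were added. The labels do not give the way the knockout was made, the number of clones behind it, or whether the 3 libraries of a group are separate cultures. The p-values therefore measure the spread between these libraries, which may be technical. No row of the table names LINC00901, so the knockout was not checked here and every direction rests on the labels.

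The proteasome is the protease that degrades most short-lived and misfolded proteins of the cell, usually after they have been tagged with ubiquitin chains. Its core particle is a barrel of stacked rings. The outer rings are built from alpha subunits, which form the gate, and the inner rings from beta subunits, which carry the proteolytic sites inside. A regulatory particle caps the barrel. Its base holds a ring of ATPases that unfold the substrate, and its lid removes the ubiquitin chain. Because the subunits are needed in fixed proportion, their genes are known to be regulated together, through a transcription factor encoded by NFE2L1 that acts when proteasome activity is short.

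FPKM sums ran from 123107 to 130151 in the KO libraries and from 130004 to 134389 in the vector controls, and the number of sequenced fragments is unknown. The keratin gene KRT18 stood at 58.00, 28.78 and 35.53 FPKM in KO 1 to 3, against 79.42, 70.41 and 78.29 FPKM in vector control 1 to 3. The epithelial genes EPCAM and CDH1 were at or near 0 in all libraries, at no more than 0.14 FPKM. Epithelial markers with a row of their own summed to 42.9 to 83.2 FPKM in the KO libraries and to 97.0 to 118 FPKM in the vector controls. Leukocyte markers with a row of their own summed to 0 in each KO library and to at most 0.68 FPKM in the vector controls. Endothelial markers summed to at most 0.16 FPKM in KO and 0.43 FPKM in vector control libraries. Pancreatic acinar markers with a row of their own summed to at most 0.15 FPKM in KO and 0 FPKM in vector control libraries. These sums leave out CD68;EIF4A1;SENP3 and CDC42;CELA3B;CELA3A, which join a marker with other genes and reached 51.58 and 21.78 FPKM. Fibroblast markers summed to 68.2 to 96.8 FPKM in the KO libraries and 68.9 to 98.9 FPKM in the vector controls, nearly all from the collagen genes COL1A2 and COL3A1, with DCN listed at 0 in each library. COL1A2 averaged 52.8 ± 2.97 FPKM in KO and 31.6 ± 6.02 FPKM in vector control libraries, and COL3A1 25.5 ± 13.7 FPKM in KO and 55.4 ± 10.7 FPKM in vector control libraries (SD, n = 3 each). The groups did not overlap in either, in opposite directions, with limma adjusted p of 0.119 and 0.164. Of the 8 marker rows tested, 5 held a single gene, and 0 passed the adjusted threshold. An unadjusted p below 0.05 was found in 4 of the 8 (KRT8;KRT78, KRT18, COL1A2 and COL3A1), a larger share than the 17.5% of all tested rows. The share of the FPKM sum in 67 rows of replication-dependent histone genes, which are transcribed in S phase, divided the libraries within each group. It was 3.06%, 5.28% and 5.33% in KO 1 to 3, against 6.35%, 2.87% and 3.33% in vector control 1 to 3. Its part in the results that follow was not tested.

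No proteasome gene passed the test between the groups. With limma on log2(FPKM + 1), fitted over all 9624 tested rows with Benjamini-Hochberg adjustment, 0 of the 45 members had an adjusted p below 0.05, where 1.35% of all tested rows did (0.509% higher and 0.842% lower in KO). At an unadjusted p below 0.05 there were 3 members, against 17.5% of all tested rows. For a set of this size a count of 0 is near the share called among all tested rows. The lowest adjusted p of a member was 0.116, for PSMA7. Without vector control 1 the same test called 3 members, PSMD12, PSMD5 and PSMG1, all higher in KO, where 13.8% of all rows were called (8.74% higher and 5.07% lower in KO). With robust limma and array weights it called 18 of the 45, of which 14 were higher and 4 lower in KO. Of all rows, 41.8% were called by that setting, 27% higher and 14.8% lower, so the members' share was near the background.

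The groups did not overlap in 7 of the 45 members, where this held for 23.8% of all tested rows. In 6 members every KO library lay below every vector control library, a pattern found in 8.35% of all tested rows. In 1 member, PSMG4, every KO library lay above every vector control library, as in 15.4% of all tested rows. The 6 were PSMA7, PSMB3, PSMC6 and PSMD8 and the joined rows PSMA1;COPB1 and PSMA6;KIAA0391. A joined row holds the reads of overlapping or neighbouring genes, so its value cannot be given to the proteasome gene alone. Of the 45 members, 6 were joined rows. GENCODE 29 names pseudogenes for 12 of the 44 subunit and helper genes, among them PSMC1, PSMA6, PSMB3, PSMD8 and PSMD12. How reads shared with such copies were assigned is not given in the sources used here.

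The alpha ring held the members with the lowest fold changes. PSMA7, an alpha subunit, stood at 31.79, 41.54 and 38.44 FPKM in KO 1 to 3, against 66.02, 54.70 and 59.01 FPKM in vector control 1 to 3. The highest KO library was below the lowest vector control. The log2 fold change was -0.68 (SE 0.16; 95% interval -1.05 to -0.30), on the log2(FPKM + 1) scale used for all fold changes here, and the adjusted p of 0.116 missed the threshold. With each library left out in turn it ran from -0.76 to -0.57. With robust limma and array weights it was called (log2 fold change -0.53, adjusted p = 0.00595). That setting called 14.8% of all tested rows lower in KO, and among the members also PSMA1;COPB1, PSMB3 and PSMD8.

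PSMA1;COPB1, which joins an alpha subunit with a coat protein gene of Golgi vesicles, stood at 44.76, 28.85 and 31.50 FPKM in KO 1 to 3, against 51.02, 46.17 and 46.56 FPKM in vector control 1 to 3 (log2 fold change -0.46, SE 0.19, adjusted p = 0.269). KO 1 lay close to the vector controls, and KO 2 and 3 lay further down. PSMA6;KIAA0391 averaged 8.02 ± 0.485 FPKM in KO and 10.0 ± 1.39 FPKM in vector control libraries (SD, n = 3 each; log2 fold change -0.28). These joined rows were named after their values were seen. PSMA3 had the highest fold change of the ring, 0.065, with 19.88, 21.42 and 24.77 FPKM in KO 1 to 3, against 42.07, 13.97 and 15.33 FPKM in vector control 1 to 3. Its KO libraries lay between vector control 1 and the other vector controls, and with single libraries left out the fold change ran from -0.21 without vector control 2 to 0.55 without vector control 1. The fold changes of the other alpha members were -0.21 for C7orf25;PSMA2, -0.045 for PSMA4 and 0.0073 for PSMA5.

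Summed over its 7 rows, the alpha ring reached 138, 140 and 139 FPKM in KO 1 to 3, against 225, 157 and 164 FPKM in vector control 1 to 3. The mean was 139 ± 1.13 FPKM in KO and 182 ± 37.3 FPKM in vector control libraries (SD, n = 3 each), and each KO library lay below each vector control. PSMA7 and PSMA1;COPB1 were the most abundant rows of this sum, so it repeats their difference, and no test was made on it. The sum includes the joined rows PSMA1;COPB1, PSMA6;KIAA0391 and C7orf25;PSMA2, so it cannot be given to the alpha genes alone. Among the rows of a single gene, the groups overlapped in PSMA3, PSMA4 and PSMA5 and not in PSMA7. Neither the separation of the sums nor the closeness of the KO sums is therefore shown for those rows alone. Levels within the ring, averaged over the 6 libraries, ran from 10.95 FPKM for PSMA5 to 48.6 FPKM for PSMA7 among the 4 rows of a single gene, a ratio of 4.44 between subunits that the particle holds in equal number.

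The groups overlapped in the catalytic beta subunits PSMB5, PSMB6 and PSMB7, and their means were closest in PSMB5. PSMB5, which carries the chymotrypsin-like site and is the main target of the drug bortezomib, stood at 35.76, 38.54 and 26.83 FPKM in KO 1 to 3, against 28.82, 30.33 and 41.45 FPKM in vector control 1 to 3. KO 3 was the lowest and vector control 3 the highest library, and the groups overlapped (log2 fold change 0.0095, 95% interval -0.48 to 0.50, adjusted p = 0.985). PSMB6, with the caspase-like site, stood at 28.31, 35.01 and 31.98 FPKM in KO 1 to 3, against 32.40, 36.41 and 39.89 FPKM in vector control 1 to 3 (log2 fold change -0.18, 95% interval -0.55 to 0.18). PSMB7, with the trypsin-like site, stood at 31.44, 27.46 and 30.69 FPKM in KO 1 to 3, against 41.24, 30.45 and 34.61 FPKM in vector control 1 to 3 (log2 fold change -0.23, 95% interval -0.61 to 0.15). The groups overlapped in both. With single libraries left out, the fold changes ran from -0.26 (without vector control 1) to -0.11 (without KO 1) for PSMB6 and from -0.33 (without vector control 2) to -0.12 (without vector control 1) for PSMB7. The intervals leave room for differences in either direction, so equal levels are not shown.

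Among the structural beta subunits, PSMB3 had the lowest fold change and the tightest groups. It stood at 103.59, 99.51 and 103.11 FPKM in KO 1 to 3, against 120.04, 123.38 and 128.76 FPKM in vector control 1 to 3. Every KO library was below every vector control, by a small step (log2 fold change -0.28, SE 0.13, adjusted p = 0.313; -0.30 to -0.25 with each library left out). PSMB4, at a like level, averaged 117 ± 13.0 FPKM in KO and 107 ± 14.3 FPKM in vector control libraries (SD, n = 3 each), with overlap. PSMB3 and PSMB4 were the most abundant of the 45 members, at 113 and 112 FPKM over all libraries. The joined row CTRL;PSMB10 had the highest fold change of the ring, 0.24. PSMB10 encodes a catalytic subunit of the interferon-induced immunoproteasome and CTRL a digestive protease. The row lay at 1.34, 1.22 and 0.90 FPKM in KO 1 to 3, against 1.20, 0.37 and 0.98 FPKM in vector control 1 to 3, and it passed the filter with the smallest number of libraries allowed. Its fold change was 0.38 without vector control 1 and 0.040 without vector control 2. PSMB1 (-0.038) and PSMB2 (0.23) completed the ring.

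Over the 15 core rows, 9 had a fold change below 0 and 6 above, with a median of -0.045. Among all tested rows 40.7% were below 0, and their median was 0.075. Over the 20 regulatory rows, 12 were below 0 and 8 above, with a median of -0.027. The 20 include the assembly chaperone rows PSMD5, PSMD9;WDR66 and PSMD10, all 3 above 0. Base and lid rows without them had medians of -0.033 and -0.12. Rescaling the libraries to the same FPKM sum moved all rows upward, to a median of 0.0095 for the core, 0.030 for the regulatory particle and 0.12 for all tested rows, so both particles kept their place below all rows. With quantile normalization the medians were -0.0055 for the core, 0.037 for the regulatory particle and 0.026 for all tested rows. With robust limma and array weights the regulatory median was 0.19. Without vector control 1 the medians were 0.0095 for the core and 0.11 for the regulatory particle, and that of all tested rows was 0.094. In that setting 8 of the 15 core rows and 14 of the 20 regulatory rows lay above 0, where 5652 of all 9624 tested rows did.

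**Figure D1:**
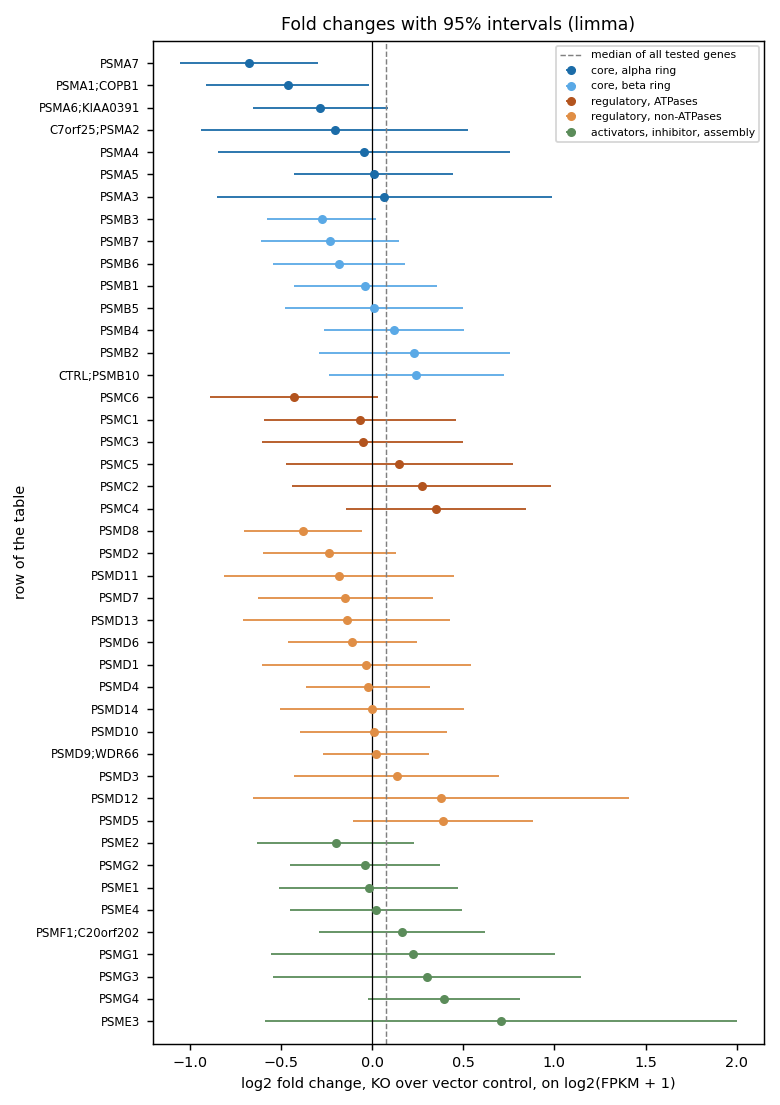
Log2 fold changes (KO over vector control, on log2(FPKM + 1); points) with 95% intervals from limma (bars; n = 3 libraries per group) of the 44 subunit and helper rows, by particle; the dashed line is the median of all tested rows, 0.075. PSMA7 lies lowest at -0.68 and PSME3 highest at 0.70, and 0 rows passed the adjusted threshold.

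Of the ATPases of the base, PSMC6 had the lowest and PSMC4 the highest fold change. PSMC6 stood at 8.52, 7.93 and 8.88 FPKM in KO 1 to 3, against 15.57, 9.80 and 10.46 FPKM in vector control 1 to 3 (log2 fold change -0.43, SE 0.20, adjusted p = 0.314). The groups did not overlap, and vector control 1 was far above the rest; without it the fold change was -0.24. PSMC4 stood at 34.81, 40.54 and 37.59 FPKM in KO 1 to 3, against 37.75, 21.99 and 30.07 FPKM in vector control 1 to 3 (0.35, SE 0.21, adjusted p = 0.430). Here vector control 1 fell within the KO range and the other vector controls below it; without vector control 1 the fold change was 0.53 and without vector control 2 it was 0.15. PSMC1, PSMC2, PSMC3 and PSMC5 had fold changes from -0.068 for PSMC1 to 0.27 for PSMC2, and each of them was highest in vector control 1. Mean levels of the ATPases ran from 10.2 FPKM for PSMC6 to 33.8 FPKM for PSMC4, a ratio of 3.32.

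Of the lid genes, PSMD8 was lower in each KO library and PSMD12 divided the libraries most. PSMD8 stood at 18.48, 20.01 and 20.24 FPKM in KO 1 to 3, against 25.01, 24.32 and 28.13 FPKM in vector control 1 to 3 (log2 fold change -0.38, 95% interval -0.71 to -0.056, adjusted p = 0.230). PSMD12 stood at 16.37, 23.32 and 25.54 FPKM in KO 1 to 3, against 35.01, 11.17 and 10.65 FPKM in vector control 1 to 3. Vector control 1 held the highest value, more than any KO library, while the other vector controls held the lowest. The fold change was 0.38 (SE 0.44, adjusted p = 0.698) over all libraries and 0.91 (SE 0.20, adjusted p = 0.0413) without vector control 1. It was 0.13 without vector control 2 and 0.096 without vector control 3.

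The other lid genes had fold changes from -0.18 for PSMD11, which ties the lid to the core, to 0.13 for PSMD3. PSMD14, the enzyme that cuts the ubiquitin chain off the substrate, averaged 17.8 ± 2.19 FPKM in KO and 18.2 ± 5.10 FPKM in vector control libraries (SD, n = 3 each; -0.0011). PSMD7, its inactive partner, had a fold change of -0.15, PSMD13 one of -0.14 and PSMD6 one of -0.11. In the base, the large scaffold genes PSMD1 and PSMD2 had -0.033 and -0.24, and the ubiquitin receptor gene PSMD4 had -0.021.

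The dedicated chaperones of base assembly, which carry PSMD symbols without being subunits of the finished particle, were PSMD5, PSMD9;WDR66 and PSMD10. PSMD5 had the highest fold change of all PSMD genes. It stood at 35.80, 39.34 and 41.17 FPKM in KO 1 to 3, against 40.03, 24.37 and 25.79 FPKM in vector control 1 to 3 (log2 fold change 0.39, SE 0.21, adjusted p = 0.382). Only vector control 1 reached the KO range, and without that library PSMD5 rose by 0.61 (SE 0.12, adjusted p = 0.0308). PSMD10, known as gankyrin, had a fold change of 0.0075, and the low joined row PSMD9;WDR66 one of 0.019.

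Activators are caps that can replace the regulatory particle. PSME3, which encodes a nuclear activator, had the highest fold change of the members, 0.70, and the widest error (SE 0.55, adjusted p = 0.552). The value rose to 1.32 when KO 1 was left out. This top rank was lost when KO 2, vector control 1 or vector control 2 was left out. Dropping KO 2 gave 0.25 for PSME3, below PSMD5 at 0.38 and PSMG4 at 0.36, among others. Dropping vector control 2 gave 0.36, below PSMG4 at 0.46. Dropping vector control 1 gave 0.87, below PSMD12 at 0.91. PSME3 stood at 8.32, 39.73 and 26.06 FPKM in KO 1 to 3, against 15.76, 7.32 and 16.01 FPKM in vector control 1 to 3. KO 2 and 3 were above all vector controls, and KO 1 lay among them. The interferon-inducible activator genes had other patterns. PSME2 had the lowest fold change of the group, -0.20, with 11.72, 13.03 and 14.84 FPKM in KO 1 to 3, against 12.19, 17.40 and 16.72 FPKM in vector control 1 to 3. It was -0.35 without vector control 1 and -0.11 without vector control 2, and -0.13 when KO 1 was left out. PSME1 averaged 27.9 ± 1.53 FPKM in KO and 28.9 ± 7.27 FPKM in vector control libraries (SD, n = 3 each), and vector control 1, at 20.70 FPKM, was its lowest library. PSME4, a large nuclear activator, had a fold change of 0.021, and PSMF1;C20orf202, which holds an inhibitor of the core, one of 0.16.

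The chaperones of core assembly work as pairs, PSMG1 with PSMG2 and PSMG3 with PSMG4. PSMG4 stood at 2.84, 3.55 and 3.63 FPKM in KO 1 to 3, against 1.73, 2.64 and 2.60 FPKM in vector control 1 to 3, with every KO library above every vector control (log2 fold change 0.39, SE 0.18, adjusted p = 0.309; 0.26 without vector control 1). PSMG1 stood at 17.85, 19.99 and 22.22 FPKM in KO 1 to 3, against 30.31, 12.36 and 12.78 FPKM in vector control 1 to 3. As in PSMD12, vector control 1 was above and the other vector controls below all KO libraries (0.22, SE 0.33, adjusted p = 0.768; 0.63, SE 0.13, adjusted p = 0.0373 without vector control 1; 0.012 without vector control 2). PSMD12, PSMG1, PSMG3 and PSMG4 were named after their values were seen. PSMG3, at 6.74, 17.43 and 15.38 FPKM in KO 1 to 3, against 13.70, 8.34 and 8.14 FPKM in vector control 1 to 3, was lowest in KO 1. PSMG2 had a fold change of -0.040. Over the 9 rows of activators, inhibitor and assembly chaperones the median was 0.16.

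**Figure D2:**
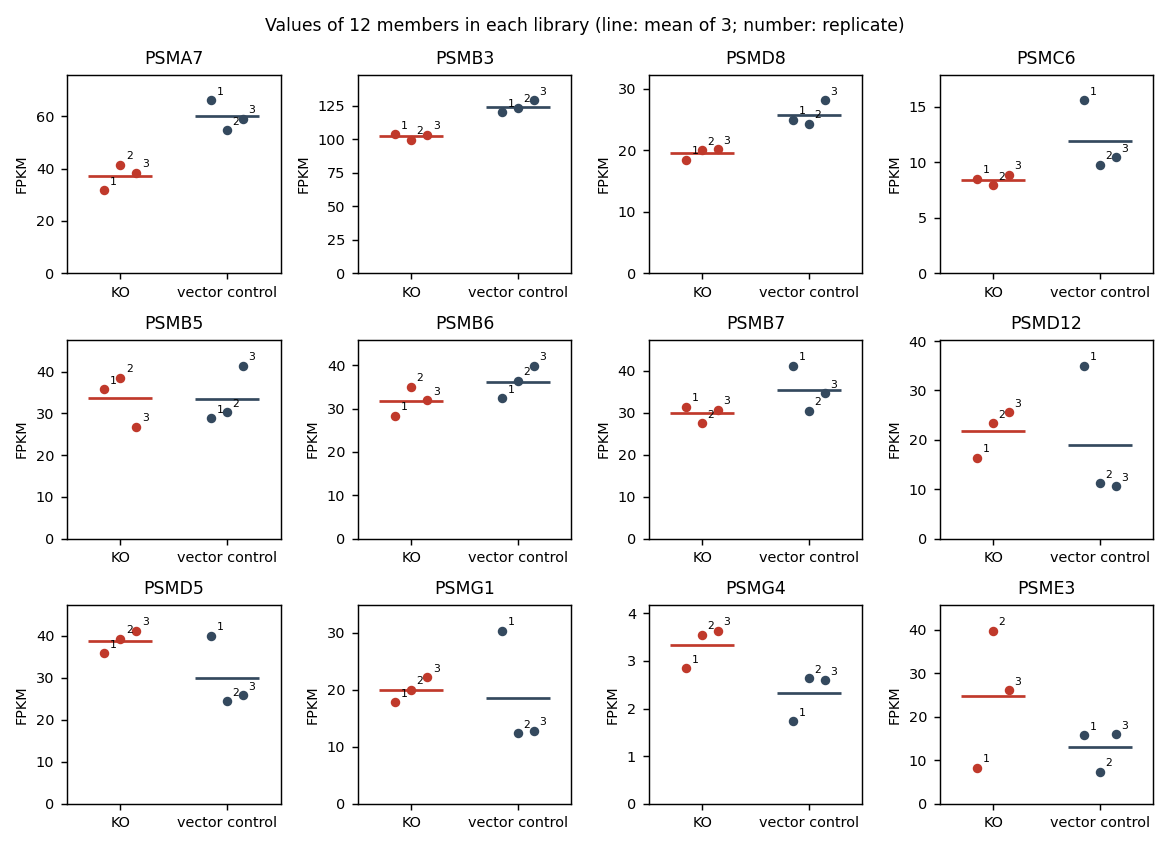
FPKM of 12 members in each library (points; the number is the replicate) with the mean of 3 (line), KO left and vector control right, each axis from 0. In PSMA7, PSMB3, PSMD8 and PSMC6 the KO points lie below the vector control points, and in PSMD12 and PSMG1 vector control 1 lies above all KO points and vector control 2 and 3 below them.

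Vector control 1 was the highest library for most of these rows. Of the 44 subunit and helper rows, 26 had their highest value in vector control 1, or 59.1%, where 23.4% of all tested rows did. In the regulatory particle this held for 14 of 20 rows and in the alpha ring for 6 of 7. None of the 15 core rows and none of the 20 regulatory rows had its lowest value in vector control 1, where 22.5% of all tested rows did. The highest value fell in KO 1 in 4, KO 2 in 4 and KO 3 in 3 of the 44 rows, against 1 row for vector control 2 and 6 rows for vector control 3. Over all tested rows the shares were 19.7%, 16.5% and 15.7% for KO 1 to 3, against 10.1% and 13.8% for vector control 2 and 3. The lowest value fell in KO 1 in 13, KO 2 in 7 and KO 3 in 4 rows, against 11 and 7 rows for vector control 2 and 3. Over all tested rows these shares were 15.5%, 12.5% and 10.9% for KO 1 to 3, against 18.7% and 19% for vector control 2 and 3. Set against the mean of the vector controls, the median regulatory row lay at -0.16, 0.030 and 0.057 (log2) in KO 1 to 3, against 0.33, -0.20 and -0.13 in vector control 1 to 3. For the core the values were -0.10, 0.033 and -0.17 in KO 1 to 3, against 0.21, -0.15 and -0.029 in vector control 1 to 3. Over all tested rows they were 0.077, 0.090 and 0.094 in KO 1 to 3, against 0.051, -0.029 and -0.020 in vector control 1 to 3. Of the activators, PSME1 went against this pattern, and so did the chaperone gene PSMG4, each with its lowest value in vector control 1.

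**Figure D3:**
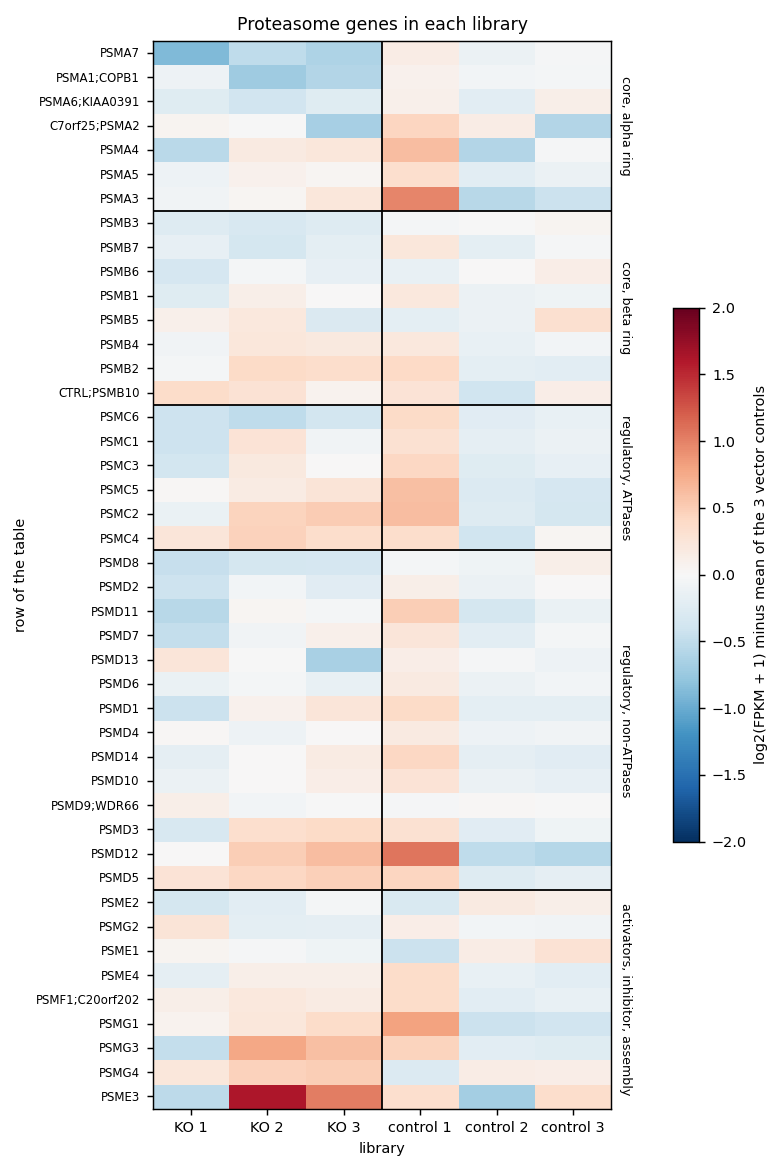
Log2(FPKM + 1) of the 44 subunit and helper rows in each library minus the mean of the 3 vector controls (colour), KO libraries left, rows grouped by particle and ordered by fold change. The column of vector control 1 is raised in most rows of the alpha ring and the regulatory particle, and the KO columns are lowered together in PSMA7 and PSMD8.

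The regulatory particle took a larger sum relative to the core in some libraries than in others. Its rows summed to 412, 506 and 505 FPKM in KO 1 to 3, against 598, 406 and 433 FPKM in vector control 1 to 3. The core rows summed to 493, 537 and 520 FPKM in KO 1 to 3, against 644, 528 and 568 FPKM in vector control 1 to 3. The regulatory sum includes the chaperone rows PSMD5, PSMD9;WDR66 and PSMD10, which together averaged 73.0 FPKM in KO and 64.3 FPKM in vector control libraries. The core sum includes the joined rows PSMA1;COPB1, PSMA6;KIAA0391, C7orf25;PSMA2 and CTRL;PSMB10. A ratio of these sums is therefore not one of subunit genes alone. The ratio of the regulatory to the core sum was 0.836, 0.943 and 0.972 in KO 1 to 3, against 0.927, 0.769 and 0.762 in vector control 1 to 3. It was high in KO 2, KO 3 and vector control 1, the libraries that also had histone shares of 5.28%, 5.33% and 6.35%. In KO 1 the ratio lay between, with a histone share of 3.06%. Whether the histone share has a part in the ratio was not tested. All 44 rows together made up 0.823%, 0.917% and 0.901% of the FPKM sum in KO 1 to 3, against 1.03%, 0.801% and 0.832% in vector control 1 to 3. In total RNA of whole cultures, a change in the share of cells in a given state and a change of the RNA per cell cannot be told apart.

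**Figure D4:**
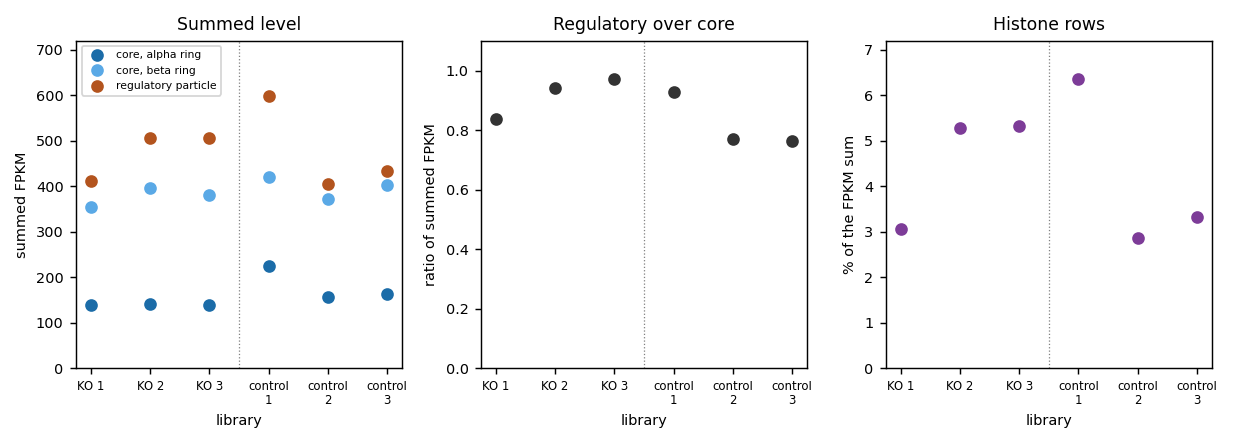
Summed FPKM of the alpha ring, beta ring and regulatory particle (left), ratio of the regulatory to the core sum (middle) and percent of the FPKM sum in histone rows (right) in each library, 1 point per library, axes from 0; the regulatory sum includes PSMD5, PSMD9;WDR66 and PSMD10. The alpha ring reads 138, 140 and 139 FPKM in KO 1 to 3, and KO 2, KO 3 and vector control 1 are high in the middle and right panels. The alpha ring sum includes the joined rows PSMA1;COPB1, PSMA6;KIAA0391 and C7orf25;PSMA2.

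Upstream sequences were set beside these patterns for 38 of the 44 genes, those with an entry in the RefSeq promoter table of GRCh38.p14. This build differs from the hg19 named for the expression table, and genes were matched by symbol only. The 250 bases before each annotated start were searched on both strands for TGACNNNGC, the core of the element bound by NFE2L1 and its relatives, and for CCAAT, bound by NF-Y. TGACNNNGC was found in 12 of the 38 genes, or 31.6%, and in 13.2% of all 27305 genes of the table. By particle this was 2 of 11 core, 5 of 19 regulatory and 5 of 8 other genes. CCAAT was found in 17 of the 38, or 44.7%, and in 37.0% of all genes. A gene with several annotated starts was counted if any of them held the motif. A match of letters is not a binding site, and windows without one say nothing of the factor.

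The printed windows are of the members with a window and a row of their own that lay lower in each KO library (PSMB3, PSMD8 and PSMC6) and of the 3 members called without vector control 1 (PSMD12, PSMG1 and PSMD5). PSMA7 has no entry in the table. PSMA1 and PSMA6, which share their expression row with another gene, are not shown, and their windows held neither motif. Capitals mark the matches, in the direction of the gene, so ATTGG is CCAAT on the other strand. The windows are PSMB3 at chr17:38752491-38752740 (plus strand), PSMD8 at chr19:38374321-38374570 (plus strand) and PSMC6 at chr14:52706950-52707199 (plus strand). The others are PSMD12 at chr17:67366578-67366827 (minus strand), PSMG1 at chr21:39183452-39183701 (minus strand) and PSMD5 at chr9:120842923-120843172 (minus strand), all in GRCh38.p14.
PSMB3: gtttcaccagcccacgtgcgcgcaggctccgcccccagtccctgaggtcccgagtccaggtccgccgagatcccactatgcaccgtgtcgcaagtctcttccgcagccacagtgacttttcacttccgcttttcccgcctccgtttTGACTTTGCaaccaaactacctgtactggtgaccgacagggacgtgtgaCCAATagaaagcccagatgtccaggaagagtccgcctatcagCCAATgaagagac
PSMD8: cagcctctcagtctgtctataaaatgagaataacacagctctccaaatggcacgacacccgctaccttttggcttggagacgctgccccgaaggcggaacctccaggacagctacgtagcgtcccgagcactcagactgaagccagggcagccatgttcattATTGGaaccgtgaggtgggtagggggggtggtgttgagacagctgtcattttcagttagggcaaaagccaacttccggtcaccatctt
PSMC6: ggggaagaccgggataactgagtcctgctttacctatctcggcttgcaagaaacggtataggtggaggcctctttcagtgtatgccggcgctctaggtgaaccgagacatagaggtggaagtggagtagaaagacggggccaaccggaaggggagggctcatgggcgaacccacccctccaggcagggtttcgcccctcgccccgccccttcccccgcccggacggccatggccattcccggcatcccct
PSMD12: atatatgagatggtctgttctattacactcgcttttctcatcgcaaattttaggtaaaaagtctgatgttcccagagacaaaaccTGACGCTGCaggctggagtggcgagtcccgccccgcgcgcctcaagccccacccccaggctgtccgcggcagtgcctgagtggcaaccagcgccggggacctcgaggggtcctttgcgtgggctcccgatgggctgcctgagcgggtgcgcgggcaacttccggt
PSMG1: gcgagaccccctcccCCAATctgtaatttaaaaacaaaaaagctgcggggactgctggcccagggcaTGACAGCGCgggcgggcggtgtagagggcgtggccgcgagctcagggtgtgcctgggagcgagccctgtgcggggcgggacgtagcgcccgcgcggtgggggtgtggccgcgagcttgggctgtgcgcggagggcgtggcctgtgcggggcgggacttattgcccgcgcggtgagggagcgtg
PSMD5: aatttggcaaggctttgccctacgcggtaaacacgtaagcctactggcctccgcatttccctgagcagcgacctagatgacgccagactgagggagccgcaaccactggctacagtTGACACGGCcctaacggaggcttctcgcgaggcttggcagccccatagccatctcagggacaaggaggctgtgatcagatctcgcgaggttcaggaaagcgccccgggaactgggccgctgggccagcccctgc
PSMB3 held TGACTTTGC, whose first letter lies 104 bases before the start, and CCAAT at 55 and 13 bases. PSMD8 held CCAAT on the other strand at 88 bases, and PSMC6 held neither motif. The 3 members called without vector control 1 each held 1 TGACNNNGC match, TGACGCTGC at 165 bases in PSMD12, TGACAGCGC at 183 bases in PSMG1 and TGACACGGC at 134 bases in PSMD5. These windows were chosen for the values of their genes, so nothing is drawn from that count.

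Other genes of the pathway were listed too, among them PSMB8 and PSMB9, which the rule left out. Of 37 listed genes, 36 were tested and 0 were called, where 1.35% of all tested rows were. In a list of this size a count of 0 is near that share. At an unadjusted p below 0.05 there were 3 of the 36, against 17.5% of all tested rows. Of the 36, 17 had a fold change below 0 and 19 above, with a median of 0.0077. Every KO library lay below every vector control in 2 and above in 3 of the 36, where this held for 8.35% and 15.4% of all tested rows. The first list held 12 subunits and helpers under other symbols (median -0.12, 8 below 0). The list for the NFE2L1 route held 11 rows (median 0.17, 3 below 0). Among them were NFE2L1 itself and the joined rows DDI2;RSC1A1 and FAU;SYVN1. They also include NFE2L2 (log2 fold change 0.33), a gene of a related factor that is not a step of the route. There were also 11 tested genes of ubiquitin, its E1 enzymes and shuttle proteins (median 0.010, 5 below 0) and the immunoproteasome genes PSMB8 and PSMB9. Of the 36 tested rows, 33 held a single gene. DDI1, a shuttle gene, was listed at 0 throughout.

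POMP, the maturation factor that dimerises core precursors, stood at 73.61, 92.55 and 98.16 FPKM in KO 1 to 3, against 121.30, 86.39 and 81.15 FPKM in vector control 1 to 3 (log2 fold change -0.11, adjusted p = 0.811). Vector control 1 was highest, as in the regulatory particle. ADRM1, the ubiquitin receptor of the base, had its highest value there too, with 13.81, 21.15 and 14.83 FPKM in KO 1 to 3, against 22.36, 14.33 and 17.88 FPKM in vector control 1 to 3 (-0.13, adjusted p = 0.811). NFE2L1 itself went the other way, with 20.93, 21.74 and 22.15 FPKM in KO 1 to 3, against 17.02, 25.56 and 29.58 FPKM in vector control 1 to 3. Its KO libraries lay close together and the vector controls on either side of them (-0.11, adjusted p = 0.818).

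The highest fold change of the pathway lists was that of HCFC1, a chromatin cofactor that binds the NFE2L1 protein, with 10.40, 20.43 and 17.55 FPKM in KO 1 to 3, against 13.09, 9.81 and 8.82 FPKM in vector control 1 to 3 (log2 fold change 0.53, adjusted p = 0.351). KO 1 lay among the vector controls, and the fold change was 0.80 without KO 1 and 0.35 without KO 2. The lowest was that of ZFAND5, which encodes a zinc finger protein that activates the proteasome, with 8.49, 6.62 and 7.80 FPKM in KO 1 to 3, against 7.55, 19.16 and 18.35 FPKM in vector control 1 to 3 (-0.80, adjusted p = 0.279). Vector control 1 lay at the level of the KO libraries, and without it ZFAND5 fell by 1.20 (adjusted p = 0.0119). PSMB8 and PSMB9, the interferon-induced catalytic genes left out by the rule, were low in all libraries. PSMB8 averaged 1.35 ± 0.170 FPKM in KO and 1.17 ± 0.131 FPKM in vector control libraries, and PSMB9 0.860 ± 0.277 FPKM in KO and 1.17 ± 0.530 FPKM in vector control libraries (SD, n = 3 each), with adjusted p of 0.699 and 0.687.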

How the data were processed

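Total RNA of 3 KO and 3 vector control libraries was sequenced, and titles gave the groups. The authors deposited 1 table of FPKM values, given to 2 decimals, with 1 column per library. HISAT2, cutadapt and FastQC are named, with hg19, per the submitters' processing notes. Their versions, the tool behind FPKM, the gene annotation and strand handling were not given in the sources used here. As a scaled value, FPKM carries no depth, so the number of libraries and their spread set the precision. The labels name no batch.

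The filter (1 FPKM or more in 3 or more of the 6 libraries) left 9624 rows, which were fitted with limma 3.58.1 in R 4.3.3 (lmFit, and eBayes with trend) as log2(FPKM + 1), without covariates. The test was two-sided, with Benjamini-Hochberg adjustment over all 9624 rows and a threshold of 0.05. The script was tested on simulated data. No test was made on sums or medians over members. Per-library values were given for PSMB5, PSMB6 and PSMB7, called members, the highest and lowest fold change of each subgroup, and, from the pathway lists, NFE2L1, POMP, ADRM1 and the highest and lowest fold change. Means were given for PSMB8 and PSMB9. Members, lists and windows were chosen with earlier results of these data known. Alternatives were other pseudocounts, filters, scalings, limma settings and thresholds, a replicate block, joined rows left out and each library left out.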

Additional observations from a re-analysis of the deposited data

How the results depend on the processing

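The main test called 130 of all tested rows (49 higher and 81 lower in KO) and 0 proteasome members. The count of all rows was 241 with no filter, 59 with a filter at 5 FPKM, 4020 with robust limma and array weights, 31 at an adjusted p below 0.01 and 274 at one below 0.1. Scaling to the same FPKM sum gave 68 higher and 76 lower, and quantile normalization 31 higher and 99 lower. With each library left out in turn, the count of all rows ran from 25 to 1329 and that of members from 0 to 3, both highest without vector control 1. Members called were 18 with robust limma and array weights and 0 in every other setting run with all 6 libraries. With the replicate number as a block, 7 rows and 0 members were called. Deviations of same-numbered libraries correlated at -0.374, -0.153 and -0.264, against 0.306 for KO 1 with vector control 2 and 0.324 for KO 3 with vector control 1. The libraries of a group are few and their deviations cancel out, so this does not tell whether the numbers pair the libraries. The median fold changes of core, regulatory and other members moved by less than the spread between replicates in all alternatives run. That spread, the pooled SD of the per-library medians (log2), was 0.15, 0.22 and 0.19, above the size of each main median. The check is therefore a loose one, and signs did change. Scaling to the same FPKM sum gave 0.0095 for the core and 0.030 for the regulatory particle. With robust limma and array weights the regulatory median moved from -0.027 to 0.19. Of the named genes, directions turned for ADRM1 (0.083) and POMP (0.14) with robust limma and array weights, and for POMP (0.011) and PSMB8 (-0.047) with quantile normalization. PSMB5 stood at -0.12 with robust limma and array weights. Median scaling moved all rows downward, with the median of all tested rows at -0.0013 in place of 0.075, and put PSMA3 at -0.024 and PSMB5 at -0.082, shifts of the same order. With each library left out, fold changes ran from -0.30 to 0.026 for ADRM1, -0.33 to 0.047 for NFE2L1, -0.22 to 0.062 for POMP, -0.21 to 0.55 for PSMA3 and -0.092 to 0.17 for PSMB5. The cause was not tested.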
